A study of Mus musculus with 6 samples.

Results

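Long non-coding RNA genes make transcripts that carry no long protein-coding reading frame in the annotation, and those with reads in interscapular brown fat, the heat-producing depot between the shoulder blades, are described here. A gene was taken as long non-coding when the mouse annotation GENCODE M21 (build GRCm38) gives it 1 of 6 gene types. These are lincRNA (between genes), antisense, processed_transcript (no open reading frame assigned), bidirectional_promoter_lncRNA, sense_intronic and sense_overlapping. Of the 10150 such genes in the annotation, 408 had at least 1 read, among 8129 genes of any type with reads. By type there were 143 antisense, 140 lincRNA, 82 processed_transcript, 35 bidirectional_promoter_lncRNA, 6 sense_intronic and 2 sense_overlapping genes, with 489 transcripts between them.

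The libraries came from male wild type C57BL/6N mice aged 20 weeks, 3 of them controls (mice 2, 9 and 14) and 3 kept alone in the cold, at 4 °C for 24 h (mice 4, 11 and 15). For the controls the general husbandry of 22 to 24 °C is the only housing given, while the cold treatment text stands on the records of all 6 mice. Housing alone and cold can therefore not be separated, and the groups follow the treatment label. Poly(A) RNA was turned into full-length cDNA with the TeloPrime kit, amplified over 27 PCR cycles and sequenced on nanopore flow cells, 2 for each library. The extraction text names eWAT, a white fat depot of the abdomen, while the labels for tissue and source name the interscapular brown depot. All 10 brown adipocyte markers had reads, summing to between 46670 and 56720 CPM (counts scaled to a common library size, edgeR's unit) in each library. Most of these reads, 501241 of 706716, fell on Fabp4, while Ucp1 stood at 4081 to 4792 CPM. Ppargc1a had 10 reads, 4 in cold 11 and 6 in cold 15, and Dio2 had 4, all in cold 4. From control to cold, mean CPM went from 6.32 to 81.9 for Elovl3 and from 24.4 to 62.1 for Kcnk3. Cox8b went the other way, from 3890 to 1975 CPM. In these 3 the control and cold libraries did not overlap. The 6 markers of white or epididymal fat had 3 reads in all, with Wt1, Hoxc9 and Trim66 at 0.

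Control libraries held 1014847 to 1849431 reads and cold libraries 2923005 to 2982713, so every cold library was deeper than every control and depth cannot be told apart from group in raw counts. A count of 3 reads was worth 1.01 to 2.96 CPM, depending on the library. Skeletal muscle markers differed most between libraries: all 9 had reads, and they summed to 131, 558 and 971 CPM in controls 2, 9 and 14 and to 215, 3062 and 14160 CPM in cold 4, 11 and 15. In whole tissue, fewer cells of a type and less RNA per cell cannot be told apart. CPM use library sizes scaled by trimmed means (TMM), and changes are log2 cold over control ± standard error (SE). Each adjusted p comes from edgeR's quasi-likelihood test, with Benjamini-Hochberg adjustment across every tested gene, and a gene is called where it is under 0.05. Each library has a mouse number of its own.

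Long non-coding RNAs are transcribed by RNA polymerase II, and most are capped, spliced and polyadenylated like messenger RNAs, but many stay in the nucleus and are present at few copies per cell. Some act where they are made, on neighbouring genes, others scaffold nuclear bodies, and some listed as non-coding turn out to encode small proteins. In brown fat a few, such as Lncbate1 and Ctcflos, have been linked to the making or the heat programme of brown and beige adipocytes.

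Poly(A) selection keeps RNAs with a tail at the 3′ end, so the last 50 bases of the most read transcript are shown for members on which the results below turn, from the GENCODE M21 transcript sequences, 5′ to 3′. Capitals mark AATAAA, the usual signal for cleavage and polyadenylation, or its common variant ATTAAA. The first 3 rose in the cold, Hotairm1 fell, Neat1 was not called, and 3930402G23Rik had reads almost only in cold libraries.
Gm45188-201 (chr7:98899496-98899545, plus strand): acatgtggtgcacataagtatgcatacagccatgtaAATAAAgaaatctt
Ctcflos-202 (chr2:173132221-173132270, plus strand): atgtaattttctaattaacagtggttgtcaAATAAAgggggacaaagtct
Lncbate1-201 (chr8:108553252-108553301, minus strand): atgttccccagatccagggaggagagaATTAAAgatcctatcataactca
Hotairm1-202 (chr6:52162070-52162119, plus strand): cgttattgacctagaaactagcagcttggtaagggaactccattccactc
Neat1-201 (chr19:5824708-5824757, minus strand): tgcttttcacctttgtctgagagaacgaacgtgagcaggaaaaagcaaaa
3930402G23Rik-201 (chr8:10924427-10924476, minus strand): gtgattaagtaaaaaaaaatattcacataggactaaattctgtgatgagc

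AATAAA began 14 bases before the annotated end of Gm45188-201 and 20 before that of Ctcflos-202, and ATTAAA began 23 bases before that of Lncbate1-201. Neither hexamer lies in the last 50 bases of Hotairm1-202, Neat1-201 or 3930402G23Rik-201, which says only that these letters are not in this window of the annotated transcript. AATAAA stood in this window in 52.2% of the most read transcripts of the 67 members with at least 10 reads (35 of 67) and in 46.8% of those of all 408. The same share was 30.4% among 15176 annotated long non-coding transcripts without a read and 61.0% among 10760 protein-coding transcripts with reads. Read members were also longer, with a median of 1266 bases against 796 in the unread set, and 19.4% of them were a single exon, against 7.58%.

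Promoters are shown for Ifi30 and Gm15241, the called members whose start in RefSeq (GRCm38.p6) lies within 100 bases of the start of their most read transcript. The windows run from 250 bases before the start to at most 50 after it, and the RefSeq start of Gm15241 lies 52 bases downstream of that of Gm15241-201. Capitals mark matches to 6 motifs searched on both strands. The TATA box was searched as TATAAA and the E-box as CACGTG. The GC box was searched as GGGCGG and the CCAAT box by the letters of its name. The cyclic AMP response element was searched as TGACGTCA, and the element of estrogen-related receptors as TCAAGGTCA.
Ifi30 (chr8:70766644-70766913, minus strand): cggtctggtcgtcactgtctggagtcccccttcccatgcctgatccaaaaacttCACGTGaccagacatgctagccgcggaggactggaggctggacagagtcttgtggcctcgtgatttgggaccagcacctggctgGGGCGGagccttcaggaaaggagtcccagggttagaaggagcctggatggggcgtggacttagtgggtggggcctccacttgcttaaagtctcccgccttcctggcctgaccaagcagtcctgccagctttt
Gm15241 (chrX:160499769-160500068, minus strand): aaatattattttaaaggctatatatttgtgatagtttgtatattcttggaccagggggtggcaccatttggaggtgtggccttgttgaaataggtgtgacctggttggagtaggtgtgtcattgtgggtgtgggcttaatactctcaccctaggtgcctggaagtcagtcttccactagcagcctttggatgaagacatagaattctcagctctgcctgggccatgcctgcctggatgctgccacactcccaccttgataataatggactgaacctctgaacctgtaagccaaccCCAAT

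In Ifi30 an E-box begins 196 bases and a GC box 112 bases before the start, and in Gm15241 the single match is a CCAAT at the far end of the window, after the start. RefSeq promoters were found for 33 of the 67 members with at least 10 reads, and 18 of these lay within 100 bases of the start of the most read transcript. Of those 18, 8 held a GC box, against 35.7% of all 32851 promoters and 16.3% of the 11588 promoters of RefSeq long non-coding genes. A CCAAT box was in 7 (37.4% of all and 36.0% of long non-coding), a TATA box in 2 (13.6% and 15.5%) and an E-box in 1 (7.15% and 5.89%). The cyclic AMP response element and the estrogen-related receptor element were in 0 of the 18, and in 1.79% and 0.423% of all promoters.

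Few genes held most of the reads. The 408 members took 18468 reads in all, and the most read, Ndufb1-ps, held 26.3% of them, the first 5 held 64.2% and the first 10 held 77.8%. At the other end 200 members had a single read, 141 had 2 to 9, 47 had 10 or more but under 100, 15 had at least 100 but under 1000, and 5 had at least 1000. Reads of 50 members came from all 6 libraries and those of 216 from 1 library. Cold libraries alone had reads of 145 members and controls alone of 104, at unequal depth.

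Long non-coding genes held 0.173, 0.129 and 0.133% of the reads in controls 2, 9 and 14 and 0.134, 0.131 and 0.130% in cold 4, 11 and 15. Control 2 stood above the other 5 libraries, which lay close together, and the groups overlapped. The difference of the means, cold minus control, was -0.0134 percentage points, smaller than the SD of the controls, 0.0239 (exact permutation p = 0.7, two-sided, where 3 against 3 libraries cannot go below 0.1). Without control 2 it was 0.000391 (exact permutation p = 0.8), and without Ndufb1-ps, which control 2 held at the highest level, it was 0.00102 (exact permutation p = 1). Without AC153155.2, which was highest in the cold, it was -0.0284, and with nuclear genes alone as the denominator -0.0178, and in both cases every cold library lay below every control (exact permutation p = 0.1 each).

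The gene types differed in direction. LincRNA genes held 0.0322, 0.0314 and 0.0293% of reads in controls and 0.0501, 0.0461 and 0.0433% in cold libraries, with no overlap (exact two-sided permutation p = 0.1, the smallest possible). The gap rested on 1 gene: without AC153155.2, the most read lincRNA, the type held 0.0288 ± 0.00206% in control and 0.0293 ± 0.00365% in cold (SD, n = 3, exact permutation p = 1). Processed_transcript genes stood lower in every cold library, at 0.0518 ± 0.00289% in control and 0.0422 ± 0.000788% in cold (SD, n = 3, exact permutation p = 0.1). Without Gm20427, the most read of them, the means were 0.0302 and 0.0262% and the groups overlapped (exact permutation p = 0.2). Bidirectional_promoter_lncRNA genes also stood lower in every cold library, at 0.0472 ± 0.0179 against 0.0318 ± 0.000716% (SD, n = 3, exact permutation p = 0.1), and without Ndufb1-ps at 0.00241 ± 0.000342 against 0.00143 ± 0.000109%. Antisense genes overlapped between the groups (exact permutation p = 0.2).

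Compared at the depth of the smallest library, 1014812 matched reads, the number of long non-coding genes seen was lower in each cold library. The expected number with at least 1 read was 115, 120 and 109 in controls 2, 9 and 14 and 103, 96.5 and 97.8 in cold 4, 11 and 15. Every cold library lay below every control, with a difference of -15.8 genes at the smallest p that 3 against 3 libraries allow (exact two-sided permutation p = 0.1). With at least 3 reads required the numbers were 40.3 ± 2.66 and 36.3 ± 2.05 (SD, n = 3) and the groups overlapped (exact permutation p = 0.2). The number seen at equal depth was not computed for genes of other types. Whether the lower number is particular to long non-coding genes was therefore not tested.

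**Figure D1:**
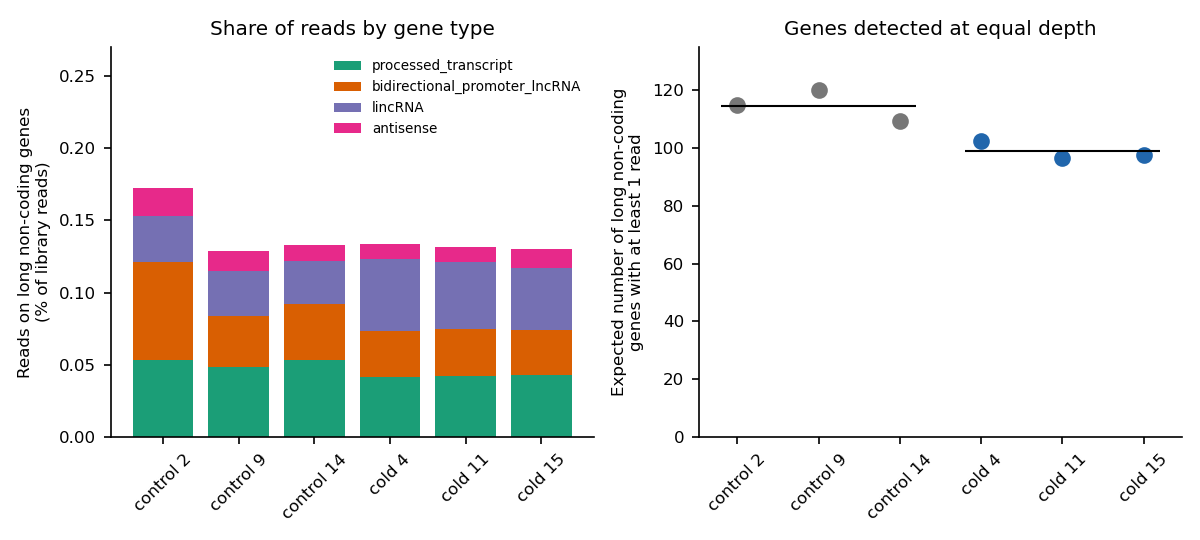
Left, percent of each library's reads on long non-coding genes, stacked by gene type (sense_intronic and sense_overlapping are too small to draw). Right, expected number of long non-coding genes with at least 1 read at the depth of the smallest library, points for libraries and lines for group means. Control 2 has the tallest bar, at 0.173%, and the 3 cold points lie between 96.5 and 103, below the controls at 109 to 120.

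The 5 members with at least 1000 reads differ in what they are. Ndufb1-ps (chr12:101968090-101977068) is Ndufb1 in RefSeq, a protein-coding gene for a subunit of respiratory complex I. It stood at 652, 337 and 383 CPM in controls 2, 9 and 14 and at 298, 306 and 289 CPM in the cold. All cold libraries lay below all controls, and control 2 stood far above the others. Its change of -0.62 ± 0.25 was not called (adjusted p = 0.0747), but was without control 9 (-0.84, adjusted p = 0.0348), in DESeq2 (-0.67, adjusted p = 0.0318) and on flow cell 1 (-0.70, adjusted p = 0.0406). Without control 2 it was -0.29 (adjusted p = 0.234).

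Gm20427 (chr17:34026034-34031580) stood at 213, 226 and 230 CPM in controls and 160, 166 and 145 CPM in cold libraries, without overlap (-0.50 ± 0.18, adjusted p = 0.0563), and was called without control 2 (adjusted p = 0.0429), in DESeq2 (adjusted p = 0.0204) and with a minimum of 30 counts (adjusted p = 0.0386). Its model spans its neighbours: 94.4% of its exon bases are also exons of Slc39a7, a zinc transporter of the secretory pathway, or H2-Ke6 on the same strand, and Slc39a7 itself was given 19 reads. Gm17494 (chr3:122255958-122293720) stood at 160, 91.5 and 152 CPM in controls and 96.0, 92.3 and 124 CPM in cold, and the groups overlapped (-0.37 ± 0.25, adjusted p = 0.280). A stretch of 40.8% of its transcript matches Ppia, the cyclophilin A gene, at 99.8% identity in the opposite sense. Gm44386 (chr6:86513891-86516273), a lincRNA of 429 bases, stood at 140, 85.3 and 103 CPM in controls and 118, 94.7 and 77.7 CPM in cold, with overlap (-0.18 ± 0.25, adjusted p = 0.611).

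CPM were also divided by transcript length, although with full-length cDNA a count need not grow with length. That scale favours short transcripts and is not a ranking of level. Per kilobase of the most read transcript, Ndufb1-ps stood at 438 CPM over all libraries, Gm44386 at 240, Gm17494 at 66.3, AC153155.2 at 52.7 and Gm20427 at 51.2. Neat1, sixth by CPM, stood at 2.38 CPM per kilobase, where its most read model, Neat1-201, is a single exon of 20771 bases. On this scale the place of AC153155.2 differed between groups: at 93.0 CPM per kilobase in cold libraries AC153155.2 stood above Gm17494 at 57.9 and Gm20427 at 42.3, while in controls, at 12.3, it stood below both, at 74.7 and 60.0.

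Of the 408 members 28 had enough reads to be tested, 12 lincRNA, 8 processed_transcript, 6 antisense and 2 bidirectional_promoter_lncRNA genes, which held 90.6% of member reads. Called at an adjusted p under 0.05 were 9 of these, 6 higher and 3 lower in the cold, or 32.1%, where 33.2% of all 2093 tested genes were called (18.1% higher and 15.1% lower). At the level of the count filter, 4.19 CPM, Gm45188 and Ctcflos stood in cold libraries only and AC102496.1 in controls only, so these 3 of the 9 had to differ to be tested. Among members at that level in both groups 6 of 25 were called, or 24.0%, against 625 of 2000 genes, or 31.2%. By type 4 of 6 antisense, 3 of 12 lincRNA, 2 of 8 processed_transcript and 0 of 2 bidirectional_promoter_lncRNA genes were called. DESeq2 called 11 of the 28 and split them otherwise, 4 higher and 7 lower, where it called 685 of all 2093 genes. Without control 2, the library with the highest share, edgeR called 14 of 39, where 687 of all 2378 tested genes were called. Of the 28 members 14, or 50%, had no overlap between the groups, against 47.8% of all tested genes. The median change was -0.33 over the 28 members and 0.04 over all tested genes. Changes above 0 were found in 10 of the 28 and in 1099 of all 2093. Leaving out cold 11 and 15 together, the libraries richest in muscle markers, was a choice made after seeing the data. It leaves cold 4 alone against the 3 controls, its spread is assumed to be that of the controls, and a call lost there does not speak for the libraries removed. In that setting 4 of 36 tested members were called (AC153155.2, Gm45188, Gm15241 and 3930402G23Rik, all higher), and 321 of all 2170 tested genes were called.

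**Figure D2:**
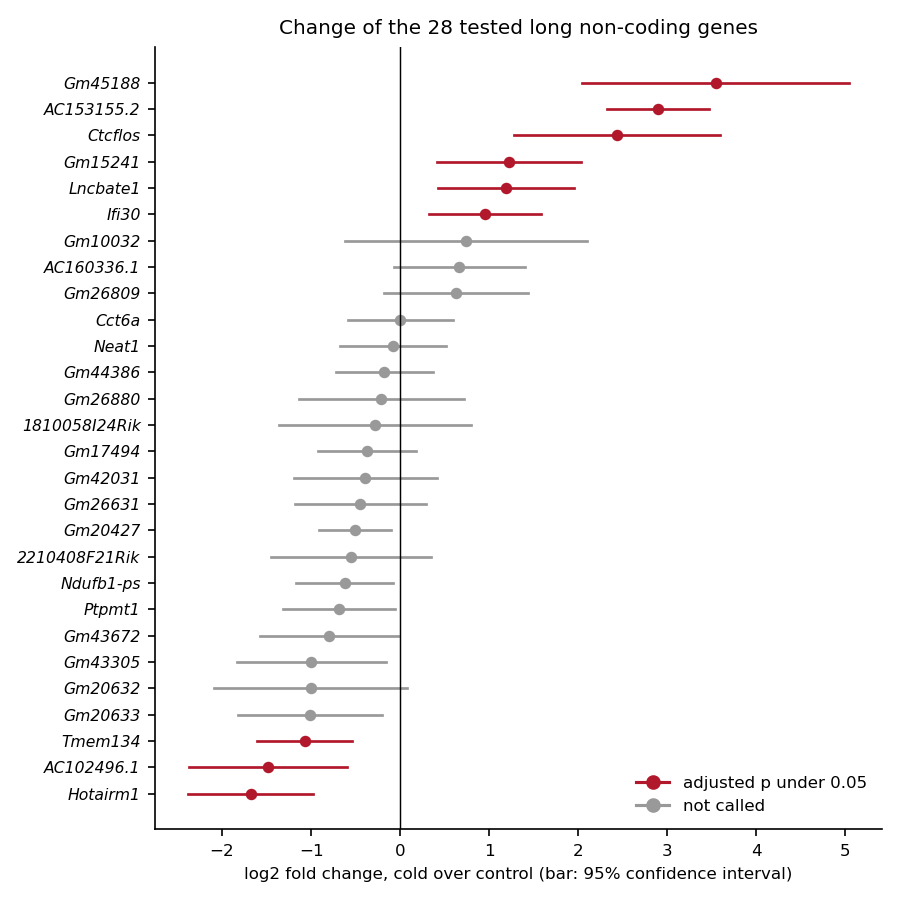
Log2 change, cold over control, of the 28 tested long non-coding genes, with 95% confidence intervals from the edgeR fit, ordered by size. The 9 called genes, drawn in red, lie at both ends, from Hotairm1 at -1.68 to Gm45188 at 3.54.

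AC153155.2 was the strongest change among the long non-coding genes by p. This lincRNA of 4 exons (chr18:61470225-61484607, minus strand) stood at 21.1, 15.4 and 30.001 CPM in controls 2, 9 and 14 and at 164, 174 and 166 CPM in cold 4, 11 and 15. All cold libraries lay far above all controls and close to each other. It rose 7.46-fold (2.90 ± 0.26, adjusted p = 3.54e-05) and stayed called in all 15 alternatives in which it was tested, with changes of 2.69 to 3.15. By reads it went from 39, 15 and 50 in controls to 490, 525 and 505 in the cold. Within 200000 bases lie Csnk1a1, a casein kinase, which rose from 18.2 to 35.2 CPM (1.01 ± 0.35, adjusted p = 0.0449), Arhgef37, with 1 read in all, and Ppargc1b, a coactivator of mitochondrial genes, with 3 reads.

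Gm45188 (chr7:98895930-98899545), an antisense gene whose body lies within that of Uvrag on the other strand, had 4, 0 and 0 reads in controls and 39, 35 and 24 in cold libraries, or 2.16, 0 and 0 against 13.1, 11.6 and 7.91 CPM. The fitted change was 3.54 ± 0.68 (adjusted p = 0.00256), but the gene could be tested only because it was high in the cold. Its size rests on 4 control reads, all in control 2: it was 7.67 without that library and 2.90 without control 14. Uvrag, an autophagy gene, had 1 read.

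Ctcflos (chr2:173110818-173133204), which runs antisense to Ctcfl, has been linked to adipocyte browning. It stood at 1.62, 1.03 and 2.40 CPM in controls and 6.71, 14.9 and 7.91 CPM in the cold, without overlap, and cold 11 was the highest. The rise was 5.41-fold (2.44 ± 0.52, adjusted p = 0.00485), in a gene that could be tested only because it was high in the cold. With cold 4 as the single cold library it was 1.93 (adjusted p = 0.170). The reads fell mostly on Ctcflos-202, with 1, 0 and 2 reads in controls and 15, 36 and 17 in cold, while Ctcflos-203 had 1, 1 and 2 against 2, 3 and 3. Ctcfl itself had 1 read, and Pck1, the gene for a key enzyme of glyceride-glycerol synthesis 19844 bases away, fell (-0.60 ± 0.20, adjusted p = 0.0384).

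Lncbate1 (chr8:108553252-108584595), named for its enrichment in brown fat, lies within the body of Zfhx3 on the other strand. It stood at 5.95, 3.08 and 4.80 CPM in controls and 11.4, 9.27 and 12.5 CPM in the cold, without overlap (1.19 ± 0.35, adjusted p = 0.0231). The call was lost in 7 of 14 alternatives, among them DESeq2 (adjusted p = 0.0741) and flow cell 1 alone (adjusted p = 0.197). It was also lost without control 9 (adjusted p = 0.0712), control 14 (0.0665), cold 4 (0.0680) or cold 15 (0.0619), and with cold 4 as the single cold library (0.124). The change was 1.00 to 1.28 in these 5 settings and 0.72 on flow cell 1. Zfhx3, a homeobox transcription factor gene, had 6 reads. Gm15241 (chrX:160488549-160499870), antisense to the receptor gene Adgrg2, which had 0 reads, stood at 4.33, 3.08 and 4.80 CPM in controls and 12.4, 9.27 and 7.91 CPM in cold (1.22 ± 0.37, adjusted p = 0.0262). Its groups did not overlap, and its call was lost in 6 of 11 alternatives: in DESeq2 (adjusted p = 0.0846) and without control 2 (0.0618), control 9 (0.0786), control 14 (0.0570), cold 4 (0.107) or cold 11 (0.0527).

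Ifi30 (chr8:70762774-70766663) encodes the lysosomal thiol reductase of antigen processing in RefSeq, though its GENCODE M21 type is processed_transcript. It stood at 14.6, 22.6 and 26.4 CPM in controls and 35.9, 50.6 and 35.9 CPM in cold libraries, all above the controls (0.95 ± 0.28, adjusted p = 0.0249). The call was lost without control 2 (adjusted p = 0.0735), control 9 (adjusted p = 0.0577), or cold 11 (adjusted p = 0.0982), and with cold 4 as the single cold library (adjusted p = 0.227), at changes of 0.72 to 0.97. Macrophages make this protein: of 5 macrophage markers 2 had reads, summing to 49.2 to 82.2 CPM in controls and 49.7 to 116 CPM in cold, with Adgre1, Cd68 and Csf1r at 0, and their part in the result was not tested. The nearest coding gene, Pik3r2 at 1513 bases, had 0 reads. Mpv17l2, at 1828 bases, was not called (0.59 ± 0.47, adjusted p = 0.363). Rab3a, a vesicle GTPase gene 4097 bases away, rose from 10.1 to 44.2 CPM (2.17 ± 0.32, adjusted p = 0.000527).

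Hotairm1 (chr6:52156902-52162119), an antisense RNA known from myeloid cells, had the largest fall of the tested members. It stood at 21.1, 28.8 and 16.8 CPM in controls and 9.06, 4.96 and 6.26 CPM in the cold, without overlap. The fall was 3.20-fold (-1.68 ± 0.32, adjusted p = 0.00242), called in 14 of 15 alternatives. With cold 4 as the single cold library it was -1.22 (adjusted p = 0.112).

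Tmem134 (chr19:4125934-4132307) is protein-coding in RefSeq and has 10 transcripts with reads. It stood at 32.5, 29.8 and 33.0 CPM in controls and 13.1, 18.5 and 13.8 CPM in cold (-1.07 ± 0.24, adjusted p = 0.00651), with no overlap. It was called in 14 of 15 alternatives, and with cold 4 as the single cold library the change was -1.23 (adjusted p = 0.0863). AC102496.1 (chr18:30267249-30272133) stood at 5.41, 9.25 and 6.00 CPM in controls and 2.35, 1.99 and 2.64 CPM in cold (-1.48 ± 0.40, adjusted p = 0.0160), resting on 50 reads. Its call was lost in 5 of 11 alternatives: with no count filter (adjusted p = 0.103) and without control 9 (0.0598), cold 4 (0.0587) or cold 11 (0.0714), and with cold 4 as the single cold library (0.246), at changes of -1.51 to -1.31. It could be tested only because it was high in controls. Same-sense matches to 15 other genes cover 91.0% of its transcript.

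**Figure D3:**
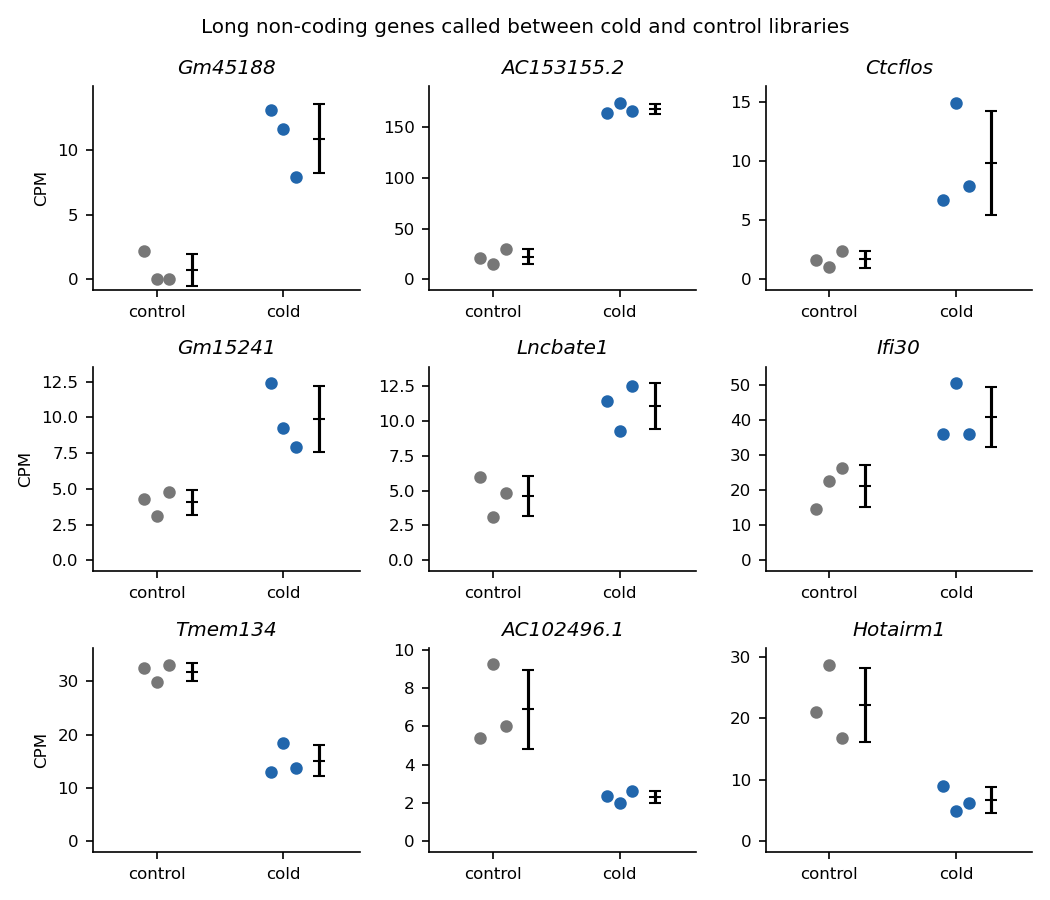
CPM of the 9 called long non-coding genes in each library, points for libraries, with group mean ± SD (n = 3) to the right of each group and an axis of its own for each gene. In every panel the control and cold points do not overlap, and AC153155.2 goes from at most 30.001 CPM in controls to at least 164 CPM in the cold.

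Neat1, the scaffold of nuclear paraspeckles, was not called, at 37.3, 56.5 and 58.8 CPM in controls and 61.1, 37.1 and 45.5 CPM in cold. The groups overlapped, and the change of -0.08 ± 0.27 had 95% limits of -0.67 and 0.51 (adjusted p = 0.839), with its sign turning under 6 alternatives. Of its reads 577 fell on Neat1-201, the model of 20771 bases, and 77 on Neat1-202 of 3004 bases. Cct6a, protein-coding in RefSeq as a subunit of the cytosolic chaperonin, stood at 42.8 ± 15.1 and 42.2 ± 1.57 CPM (SD, n = 3; 95% interval -0.58 to 0.59). Psph, the phosphoserine phosphatase gene opposite Cct6a with shared exon bases, fell from 21.2 ± 3.01 to 3.99 ± 1.53 CPM (-2.38 ± 0.33, adjusted p = 0.000431).

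Ptpmt1, protein-coding in RefSeq as a mitochondrial phosphatase of cardiolipin synthesis, stood at 24.3, 19.5 and 27.0 CPM in controls and 19.1, 15.2 and 10.2 CPM in the cold, without overlap, and was not called (-0.68 ± 0.29, adjusted p = 0.0889). Gm20632 and Gm20633, antisense genes in a histone cluster that share 46.4% and 39.7% of their transcripts with each other at 99.3% identity, had changes of -1.01 ± 0.49 and -1.01 ± 0.37 (adjusted p = 0.138 and 0.0546). Reads of these copies can be split between them. Without cold 15 both were called (-1.50, adjusted p = 0.0411, and -1.34, adjusted p = 0.0252). Both were also called with no count filter (-0.89, adjusted p = 0.0465, and -0.90, adjusted p = 0.0406). Gm20633 was called as well without control 14 (adjusted p = 0.0387), in DESeq2 (0.0262), on flow cell 2 (0.0326) and at equal depth (0.0396). Without control 2, the highest library for both, the changes were -0.20 (adjusted p = 0.754) and -0.51 (adjusted p = 0.271). Gm26809 and AC160336.1, lincRNAs of which 39.5% of the first matches the second in the opposite sense, had changes of 0.63 ± 0.37 and 0.67 ± 0.33 and were not called, AC160336.1 except without control 9 (adjusted p = 0.0461). AC160336.1 is annotated as a single exon of 93147 bases and had 225 reads.

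Of 31 tested transcripts of members, 11 were called, 6 higher and 5 lower, where 912 of all 2787 tested transcripts, or 32.7%, were called. Among the 11, Gm45188-201, Ctcflos-202 and AC102496.1-201 come from the genes at the count filter level in 1 group only. They had to differ to be tested. The higher were AC153155.2-201, Gm45188-201, Ctcflos-202, Lncbate1-201, Gm15241-201 and Ifi30-201, each from a called gene. The change of Ctcflos-202 exceeded that of its gene (3.396 ± 0.72, adjusted p = 0.00374), but its size rests on 1, 0 and 2 control reads. The lower were Hotairm1-202, AC102496.1-201, both tested transcripts of Tmem134, and Gm20633-201 (-1.02 ± 0.36, adjusted p = 0.0483), whose gene was not called at nearly the same value. The changes of the Tmem134 transcripts were -1.13 ± 0.36 for Tmem134-211 and -1.19 ± 0.35 for Tmem134-212. Without cold 4, 7 of 33 tested member transcripts were called, where 611 of all 2681 were. Transcript usage could be tested in 4 members, Ptpmt1, Neat1, Tmem134 and Ndufb1-ps, and was called in 0 by diffSpliceDGE of edgeR (0 with an unadjusted p under 0.05; smallest p 0.432), against 8 of all 539 genes tested, or 1.48%.

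Low counts kept Malat1 and 3930402G23Rik out of the test. Malat1, an abundant RNA of nuclear speckles in many tissues, had 0, 0 and 1 reads in controls 2, 9 and 14 and 14, 6 and 16 in cold 4, 11 and 15. The lincRNA 3930402G23Rik (chr8:10924427-10928696) had 1, 0 and 1 reads in controls and 35, 12 and 30 in cold. With no count filter edgeR called both higher (3.97, adjusted p = 0.00100, and 4.22, adjusted p = 2.1e-07). The controls held fewer reads in all, and these sizes rest on 1 and 2 control reads.

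Without the filter 2410022M11Rik, with 5, 7 and 10 reads against 2, 2 and 4, and Gm32468, with 5, 2 and 4 against 0, 0 and 0, were called lower. Gm49540 was called higher from 16 reads, 1 in cold 11 and 15 in cold 15, with none in the other 4 libraries. It shares 64.6% of its exon bases with the myoglobin gene Mb on the opposite strand, and those libraries had the highest muscle marker sums, 3062 and 14160 CPM. The part of muscle RNA in this result was not tested.

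Members were set beside the unread long non-coding genes by their place next to coding genes, as a description with no test. The start of 161 of the 408 members, or 39.5%, lay within 1000 bases of the start of a protein-coding gene on the other strand, against 12.2% of the 9742 annotated long non-coding genes without a read. Of those 161 coding partners 71.4% had reads themselves, against 42.7% of the partners of unread genes and 33.5% of all 22028 annotated protein-coding genes. An exon opposite a coding exon was found in 155 members, or 38.0%, against 21.8% of unread genes. Of these opposite partners 72.9% had reads and 11.0% had at least 1000 reads, while for unread genes the shares were 37.3% and 1.75%, and 2.96% of all coding genes had at least 1000 reads. The sources used here do not say whether counting used the strand of a read. Where their exons overlap, reads of a gene and of its antisense partner may therefore be confused, and how far this holds for each pair was not tested.

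**Figure D4:**
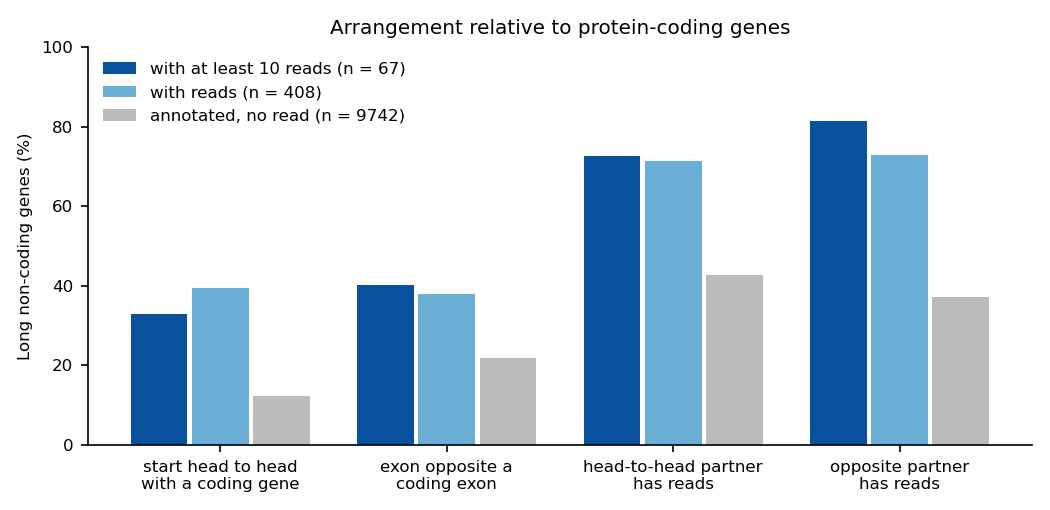
Percent of long non-coding genes whose start lies within 1000 bases of a coding start on the other strand, and that have an exon opposite a coding exon, then the percent of those partners with at least 1 read. Dark bars are the 67 genes with at least 10 reads, light bars all 408 with reads and grey bars the 9742 without: in each group of bars the grey one is the lowest.

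Among the members with at least 10 reads the pairs included Gm30934 beside Atp5l, an ATP synthase subunit gene, with 27 and 215967 reads, and Gm45774 beside the metallothionein gene Mt2, with 34 and 11232 reads. Gm13111, named Prdm16os in RefSeq, starts 703 bases from Prdm16, a transcription factor gene of brown fat identity, and they had 14 and 1 reads. Gm26631 lies opposite Cox5a, a cytochrome oxidase subunit gene, with 134 and 72502 reads, and its change of -0.45 ± 0.33 (adjusted p = 0.327) stood beside -0.30 ± 0.13 for Cox5a (adjusted p = 0.0948), neither called. The change of Gm26631 was -0.22 without control 2 and -0.77 without control 14. The member and its nearest or overlapping coding gene were both tested in 5 pairs, and 3 of these had the same sign.

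By shared exons, 12 members overlapped a coding gene on the same strand and held 15.2% of member reads, 154 overlapped one on the opposite strand only and held 48.7%, and 242 shared no exon base and held 36.1%. Without the first 2 groups the share of reads was 0.0398 ± 0.000903% in control and 0.0546 ± 0.00327% in cold (SD, n = 3), higher in every cold library (exact permutation p = 0.1, smallest possible). Without AC153155.2 it was 0.0377 ± 0.00157% and 0.0375 ± 0.00335%, with overlap (exact permutation p = 0.9). Of the tested members that share no exon base 6 of 16 were called, 4 higher and 2 lower, where 33.2% of all tested genes were. The 6 include Gm45188 and AC102496.1, which reached the count filter level in 1 group only and had to differ to be tested. Of all genes at that level in both groups 31.2% were called. RefSeq lists 266 of the 408 as long non-coding, with 14.1% of member reads, and 11 as protein-coding, with 35.2%. Another 126 had no match and held 50.4%. The 11 protein-coding ones held 0.0572 ± 0.0165% of reads in control and 0.0426 ± 0.00172% in cold (SD, n = 3), lower in every cold library (exact permutation p = 0.1), and the rest 0.0878 ± 0.00743% and 0.0890 ± 0.00215% (exact permutation p = 0.9). An open reading frame of at least 100 codons was found in 27.0% of the most read member transcripts, 15.5% of unread long non-coding ones and 91.4% of coding ones with reads.

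Sequence shared with other genes touches some low counts. The matches counted here include genes that overlap a member at its own place in the genome, not only copies elsewhere. Of the 408 most read transcripts 208 matched a transcript of another gene over at least 100 bases at 95% identity, and 32, or 7.84%, matched a gene with at least 1000 reads. Of the 32, 9 had such a match in the same sense and 26 in the opposite sense. In 19 members same-sense matches to other genes, whatever the reads of those genes, together covered at least 50% of the transcript. Gm10076 matched Rpl41 over 99.7% of its length, and a stretch of 79.4% of Gm28037 is identical to Rpl24. Rpl41 and Rpl24 are ribosomal protein genes, with 12214 and 21213 reads. Gm28037 overlaps Rpl24 on the same strand, and 100% of its exon bases are shared with coding exons.

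Well known long non-coding genes were mostly absent or low. Of 21 snoRNA host genes 19 were found in the annotation, 10 had reads, 70 in all, and 0 could be tested. Snhg20 had 10, 4 and 6 reads in controls and 5, 3 and 3 in cold libraries, which were deeper, and Snhg3 had 3, 1 and 0 against 6, 3 and 5. Of 8 imprinted genes Meg3 had 9 reads and H19 had 3. None of 11 microRNA hosts had a read. Of 14 nuclear or widely expressed RNAs 13 were found and 6 had reads: beside Neat1 and Malat1, 1700020I14Rik, the Oip5os1 of RefSeq, had 0, 2 and 0 reads in controls and 4, 5 and 4 in cold, and Xist, Tsix and Tug1 were among 7 at 0.

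Of 6 genes once listed as non-coding that encode micropeptides, 2 were members with reads. Of these 1810058I24Rik was tested, at 6.39 ± 4.36 and 4.75 ± 1.45 CPM (SD, n = 3; -0.28 ± 0.49, adjusted p = 0.687). Mtln on the same list, which encodes a mitochondrial micropeptide and is typed protein_coding in GENCODE M21, is no member. It stood at 202, 154 and 128 CPM in controls and 31.9, 26.1 and 32.6 CPM in cold libraries, and fell 5.33-fold without overlap (-2.41 ± 0.24, adjusted p = 5.51e-05). Of 4 adipose long non-coding genes Ctcflos rose, Gm15551 had 1 read, and Dio3os and Gm13133 had 0. A gene at 0 over the 13457246 reads of the series can have been present below the level of 3 reads in each library. PCR copies are no independent molecules, so this limit covers only the error of counting.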

How the data were processed

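The 12 deposited files, 2 flow cells for each of 6 libraries, hold raw read counts per Ensembl transcript, made by the authors with minimap2 on GRCm38, per the submitters' processing notes, with no normalization. The sources used here do not give the rule for reads that align to more than 1 transcript. Counts were summed over flow cells and, through GENCODE M21, per gene. Of 14693 transcript identifiers 22 found no match. Unlisted transcripts were taken as 0.

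CPM, the edgeR unit of level, was computed here. Genes and transcripts were tested over the whole table with edgeR 4.0.16 in R 4.3.3 (filterByExpr at 10 counts, TMM, robust quasi-likelihood test), and usage with diffSpliceDGE. SE was derived from the log2 change and its F statistic. DESeq2 1.42.0 was an alternative. Shares and detected genes were compared by exact permutation (SciPy 1.17.1). Copies were sought with blastn 2.17.0. The members, gene lists and naming rule were chosen with earlier results of these data known. The rule named the 10 highest members, every called one with its nearest coding gene (some are not reported here), and listed genes with at least 10 reads; other genes named were chosen after their values were seen.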

Additional observations from a re-analysis of the deposited data

How the results depend on the processing

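No paired analysis was possible because the groups share no replicate numbers. Of 28 tested members 9 were called (695 of all 2093 genes). DESeq2 called 11 (685 of 2093), no count filter 15 of 408 (708 of 8129) and a minimum of 30 counts 5 of 15 (576 of 1423). Equal depth called 7 of 18 (548 of 1524). Leaving out 1 library gave 7 to 14 calls, with 28 to 39 members tested (498 to 687 calls among 2023 to 2378 tested genes). Without cold 11 and 15 together, added after seeing the data and with 1 cold library left, 4 of 36 were called (321 of 2170). Of 31 tested member transcripts 11 were called (912 of all 2787). The stricter filter called 4 of 14 (704 of 1767) and flow cell 1 called 4 of 19 (658 of 2179). Flow cell 2 called 7 of 18 (688 of 2027) and equal depth 6 of 17 (661 of 1927). Fewer transcripts were tested in these settings, so their counts cannot be read as lost calls alone. Leaving out 1 library gave 7 to 14 calls, with 30 to 41 tested (611 to 862 calls among 2666 to 3237 tested transcripts). Without cold 11 and 15, with 1 cold library left, the count was 3, with 39 tested. The share difference of -0.0134 turned to 0.00102 without Ndufb1-ps, 0.0148 without exon-sharing members and 0.000391 without control 2, with a range of -0.0212 to 0.000391 leaving out 1 library. The difference in detected genes was -18.5 to -14.6 leaving out 1 library.

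Signs of uncalled changes turned for 1810058I24Rik without control 9 (0.22), and for Cct6a in DESeq2 (-0.041), with the stricter filter (-0.00060), on flow cell 2 (-0.10), at equal depth (-0.032), and without control 2 (-0.21), control 14 (-0.092) or cold 4 (-0.049). They turned for Gm26880 without control 14 (0.060) and with non-coding transcripts only (0.00099), and for Gm44386 without control 2 (0.029), without cold 11 and 15 (0.15) and with non-coding transcripts only (0.063). Neat1 turned with no filter (0.046), on flow cell 1 (0.038), without control 14 (0.017), cold 11 (0.081) or cold 11 and 15 (0.32), and with non-coding transcripts only (0.11). Leaving out 1 library gave ranges of -0.68 to 0.22 for 1810058I24Rik, -0.21 to 0.26 for Cct6a, -0.55 to 0.060 for Gm26880, -0.37 to 0.029 for Gm44386 and -0.31 to 0.081 for Neat1. The cause of these turns was not tested. The median change of all genes was 0.04 in edgeR, -0.012 in DESeq2, 0.11 on library totals and 0.16 with no filter. Depth limits the 341 members under 10 reads, which the main fit did not test. That fit left 380 members untested in all, and only the fit with no count filter tested all 408.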
